A study of Mus musculus with 16 samples.

Results

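The first day of retinoic acid (RA) treatment was examined in wild-type (WT) mouse embryoid bodies (EBs), the floating aggregates that embryonic stem (ES) cells form when they begin to differentiate. The libraries were taken by their labels, 2 of WT EBs after the first day of RA (EB5) and 2 of WT EBs collected just before RA was added (EB4), which made 4 of the 16 libraries of the series. All 27807 genes of the table were considered, and the 16124 that averaged 10 or more normalised counts over the 16 libraries were tested.

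Polyadenylated RNA was sequenced from ES cells and from EBs at EB4, EB5 and, after further days of RA, EB8, on the way to neurons that use glutamate. The series holds the same stages of cells homozygous for a Taf4a null allele (Taf4a-/-), which lack a subunit of the general transcription factor TFIID, and each of the 8 groups had 2 libraries. Both groups compared here were labelled Taf4+/+. They came from ES lines derived from blastocysts of crosses between Taf4a+/- mice and were kept on inactivated embryonic fibroblast feeders with the cytokine LIF before aggregation. The series names 2 independent WT lines without saying which library came from which line, so p-values measure a spread between libraries. That spread was pooled within the 8 groups of all 16 libraries, and not taken from the 4 compared libraries alone. A fit of only the compared groups called 170 genes, against 601 in the main fit. EB5 differed from EB4 by RA and also by a further day in culture, and as no untreated EBs of the EB5 stage were analysed here, the effects of RA and of time cannot be told apart. The libraries were made from whole EBs, in which fewer cells of a type and less RNA per cell cannot be told apart.

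RA is a small molecule made from vitamin A that enters the nucleus and binds heterodimers of RA receptors (RARs) and retinoid X receptors (RXRs), which sit on DNA at pairs of direct repeats called RA response elements. Binding exchanges corepressors for coactivators, and among the first genes to respond are those of RA breakdown and of RA binding and the Hox genes, which give cells their position along the head to tail axis. In EBs, RA is used to push cells from a state like the early epiblast towards neural progenitors of the hindbrain and spinal cord.

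Response elements are known in the promoters of Rarb, which encodes an RA receptor, and Cyp26a1, which encodes the main enzyme of RA breakdown. They are shown because both genes were among those that rose at EB5. The RefSeq sequence (GRCm38.p6) of the 150 bases before an annotated start of each gene is printed 5′ to 3′ on the strand of the gene. It is chr14:16575477-16575626 on the minus strand for Rarb and chr19:37697658-37697807 on the plus strand for Cyp26a1. Such a start need not be the outermost end of the gene. Reads were counted over whole genes and do not tell which start was used. Capitals mark 2 half-sites in the same direction with 5 bases between them (DR5).

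Rarb: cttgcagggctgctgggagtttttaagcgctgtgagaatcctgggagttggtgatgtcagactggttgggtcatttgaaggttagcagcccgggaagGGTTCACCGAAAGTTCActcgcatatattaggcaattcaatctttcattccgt
Cyp26a1: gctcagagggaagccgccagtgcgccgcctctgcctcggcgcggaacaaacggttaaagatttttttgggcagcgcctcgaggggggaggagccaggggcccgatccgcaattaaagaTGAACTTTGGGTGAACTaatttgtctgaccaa

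A half-site was AGGTCA or the same letters with G in place of the first A (GGGTCA), while AGTTCA was a further form and GGTTCA combined both changes. Pairs were searched on both strands, from 250 bases before to 50 bases after each start. The element of Rarb lay 53 to 37 bases before the annotated start on the strand of the gene. That of Cyp26a1 lay 32 to 16 bases before the annotated start on the opposite strand. A DR5 was present in 32 of 32851 promoter windows (0.0974%). Counted by gene, 6 of the 10770 tested genes with a window held one (0.0557%). Among the genes that rose at EB5, 3 of the 286 with a window held one (1.05%), namely Rarb, Cyp26a1 and Ppbp, a chemokine gene with 0 and 0 normalised counts at EB4 and 19.8 and 32.9 at EB5. None of the 127 genes that fell and had a window held one. Half-sites with 2 bases between them (DR2) were found in 88 windows (0.268%) and in 13 tested genes with a window (0.121%). Among the genes that rose 2 held one (0.699%), and among those that fell 2 (1.57%). With 1 base between them (DR1) they were found in 73 windows (0.222%) and in 28 tested genes with a window (0.260%). None of the genes that rose or fell held a DR1. Of the 32 Hox genes tested, 17 had a window and none held a DR5 or a DR2. These counts describe letters in a short window and not binding.

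The 4 libraries held between 24409504 and 27685306 reads in genes, within the range of 22442118 to 40711826 over the series. The labelled cell type was differentiating ES cells. Pou5f1 and Sox2, both expressed in ES and epiblast cells, were high in all 4 libraries (lowest value 1936 for Pou5f1 and 6960 for Sox2). Neural progenitors also express Sox2, so its level does not tell these cells apart. Genes of chromosome 8 stood higher in replicate 1 of both groups, where the median deviation of well-expressed chromosome 8 genes from their means over the 16 libraries, relative to that of all genes, was 0.41 on the log2 scale at EB4 and at EB5, against -0.14 and -0.13 in replicate 2, so that this difference was shared by the groups compared. Of the 853 chromosome 8 genes tested, 21 rose and 2 fell.

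Of the 16124 genes, 601 differed between EB5 and EB4 (3.73%; limma, adjusted p under 0.05), 417 being higher (2.59%) and 184 lower (1.14%) after the first day of RA. The rises were larger than the falls. On the log2 scale the median change was 2.92 for the genes that rose (2.88 when the 28 genes without a read at EB4 were set at their lower bound) and -1.56 for those that fell, against -0.01 for all genes tested, whose quartiles were -0.26 and 0.31. A change of at least 4 on the log2 scale was seen for 139 genes that rose and 9 that fell, and 49 rose by at least 6. In all 601 genes the EB4 and EB5 libraries did not overlap, an arrangement that 21.8% of tested genes showed with EB5 higher and 20.0% with EB5 lower. The count was 264 without EB4 replicate 1, 399 without EB5 replicate 1 and 197 without EB5 replicate 2. Without EB4 replicate 2 it was 536. Of the 107 called genes that the text names, 49 were also called without each library in turn, and 58 lost their call without at least 1 library. The losses were 44 without EB4 replicate 1, 22 without EB4 replicate 2, 29 without EB5 replicate 1 and 55 without EB5 replicate 2. Fgfr4, Fzd5, Hand2, Lfng, Neurog1, Penk, Slc22a3, Smad6, Spry4, Zeb2 and Zic5 lost it whichever library was left out. The others that lost it in some omissions were Aldh1a2, Boc, Cbln4, Cdh6, Cdon, Crabp1, Cyp26c1, Dkk1, Dll1, Enpp2, Etv5, Evx1, Fgfr2, Foxb1, Foxi3, Gm14717, Grhl2, Hhip, Hoxa6, Hoxb8, Hoxc6, Lhx1, Lhx2, Meox1, Msx2, Msx3, Olig3, Otx2, Pax7, Pknox2, Pou5f1, Ppbp, Rara, Sox17, Spna1, Spry1, Spry2, Stra6, T, Tdgf1, Tfap2a, Wls, Wnt1, Wnt3a, Wnt5a, Zfp281 and Zic1. Counts of list members that rose or fell are to be read beside the 2.59% and 1.14% of all genes tested. Counts of list members with a library left out are given in the order EB4 replicate 1, EB4 replicate 2, EB5 replicate 1, EB5 replicate 2.

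**Figure D1:**
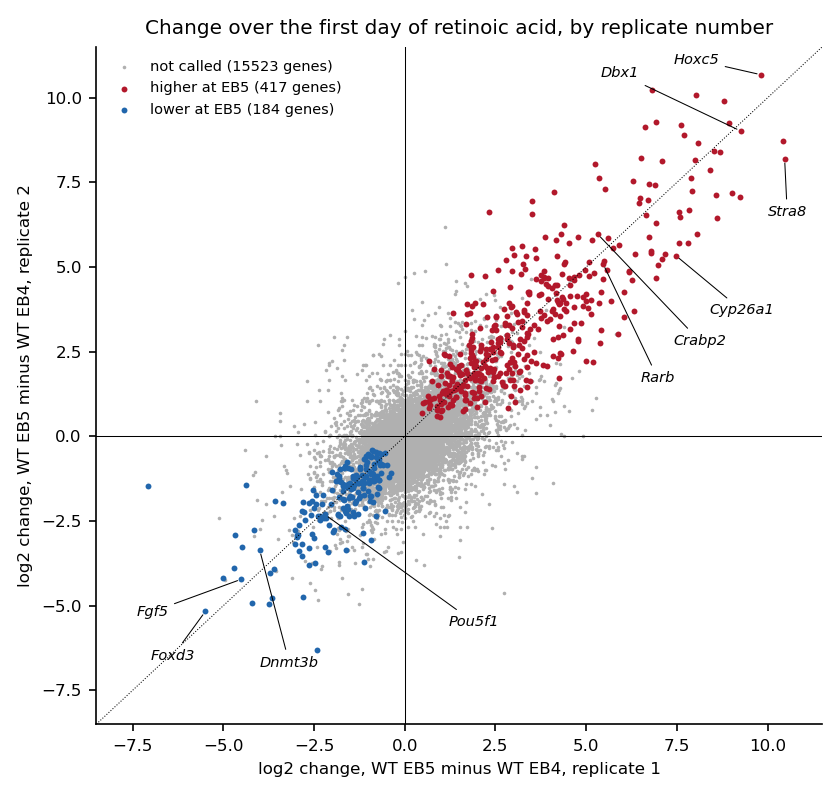
Log2 change from WT EB4 to WT EB5 of each tested gene in replicate 1 (x axis) and in replicate 2 (y axis). Red points are the 417 genes that rose, blue points the 184 that fell and grey points the genes not called. All called genes changed in the same direction under both replicate numbers, which follows from their EB4 and EB5 libraries not overlapping. The rises reached further from 0 than the falls.

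Among the genes that handle RA itself, Cyp26b1 and Cyp26a1, of its breakdown, had the largest log2 changes. Of 14 tested members of the RA metabolism and binding list, 9 rose and none fell (64.3%, against 2.59% of all genes tested being higher), and the median log2 change was 2.90. Cyp26a1 (chromosome 19, 37772298 to 37776018, plus strand, NCBI37) stood at 53.7 and 344 normalised counts at EB4 and 9699 and 13968 at EB5 (log2 change 6.40, SE 0.67, adjusted p = 0.000184). Cyp26b1, a second RA hydroxylase, stood at 1.1 and 10.7 normalised counts at EB4 and 481 and 1216 at EB5 (log2 change 7.27, SE 0.78, adjusted p = 0.000231). Cyp26c1, the third member of the family, had 5.5 and 18.2 normalised counts at EB4 and 133 and 321 at EB5 (log2 change 4.21, SE 0.73, adjusted p = 0.00652). For all 3 hydroxylases both EB5 libraries lay far above both EB4 libraries, and Cyp26a1 was the most abundant of them per kilobase of exon, with a mean of 6674 normalised counts per kilobase at EB5 against 184 for Cyp26b1. At EB8, Cyp26b1 had 18735 and 38733 normalised counts and Cyp26a1 11284 and 13264.

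The RA binding proteins rose as well. Crabp2, which carries RA to its receptors, stood at 706 and 581 normalised counts at EB4 and 28139 and 36589.7 at EB5 (log2 change 5.64, SE 0.47, adjusted p = 3.73e-05). Crabp1, its relative, had 74.5 and 68.6 normalised counts at EB4 and 365 and 804 at EB5 (log2 change 2.90, SE 0.51, adjusted p = 0.00673). The groups were separate for both, and the mean level of Crabp2 at EB5 was 24480.0 normalised counts per kilobase, against 729 for Crabp1. Stra6, the cell-surface receptor that takes up retinol, rose by 5.03 on the log2 scale from 62.5 and 5.4 to 722 and 597 normalised counts, although its EB4 libraries differed widely and it was called without EB4 replicate 1 but not without any other library (limma, adjusted p from 0.083 to 0.101). Dhrs3, which reduces retinaldehyde back to retinol, rose by 2.77. Among the enzymes that make RA, Aldh1a2 rose from 4.4 and 10.7 to 36.7 and 92.2 normalised counts (log2 change 2.90, SE 0.61, adjusted p = 0.0199). Rdh10, Aldh1a3 and Fabp5 were not called, with log2 changes of -0.13, 0.13 and 0.02 and overlapping groups, and Aldh1a1 (3.09) and Rbp4 (1.18) were not called either. The list had 7, 8, 8 and 5 members higher with a library left out.

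**Figure D2:**
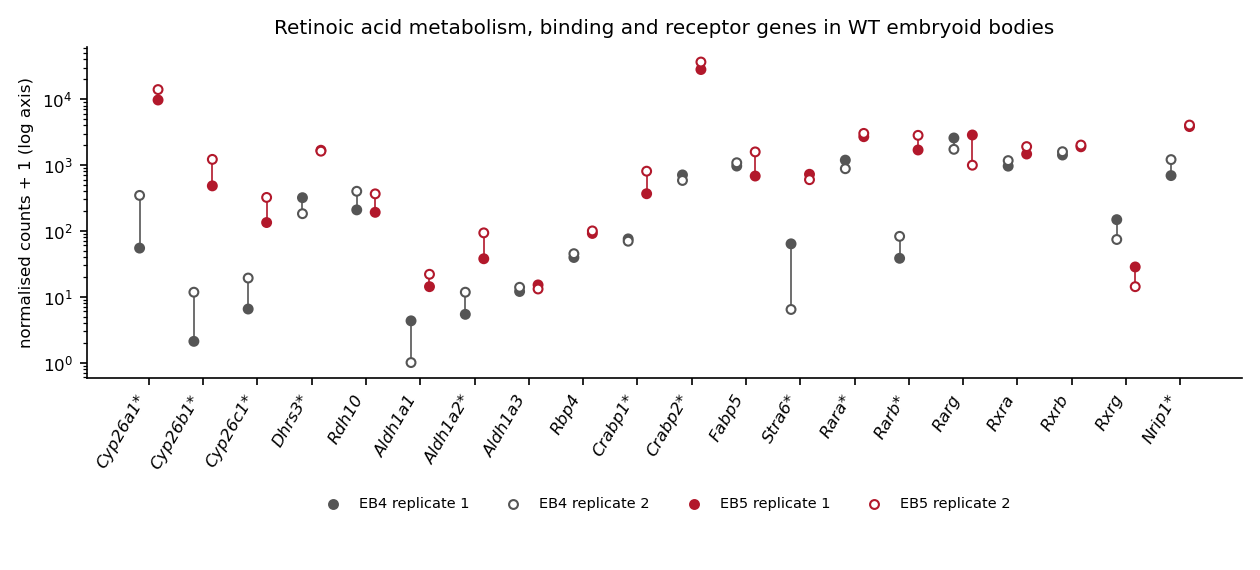
Normalised counts plus 1 (log axis) of genes of RA metabolism, binding and reception in the 2 WT EB4 libraries (grey) and the 2 WT EB5 libraries (red), with filled points for replicate 1, open points for replicate 2 and a line joining the pair. Asterisks mark genes past an adjusted p of 0.05; Cyp26a1, Cyp26b1, Crabp2 and Rarb had the largest log2 changes among them, and Rdh10, Aldh1a3, Fabp5 and Rarg overlap.

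Of the 12 receptors and cofactors, 3 rose and none fell, with a median log2 change of 0.31. Rarb (chromosome 14, 17263356 to 17651381, minus strand) stood at 37.3 and 81.5 normalised counts at EB4 and 1689 and 2819 at EB5 (log2 change 5.28, SE 0.53, adjusted p = 0.000152). Rara, which encodes the receptor found in most tissues, had 1184 and 877 normalised counts at EB4 and 2688 and 3018 at EB5 (log2 change 1.48, SE 0.27, adjusted p = 0.00889). Nrip1, a corepressor that RA induces, had 689 and 1206 normalised counts at EB4 and 3828 and 4038 at EB5 (log2 change 2.11, SE 0.25, adjusted p = 0.000506). The third receptor gene, Rarg, did not pass the test, and its libraries overlapped, with 2570.1 and 1728 normalised counts at EB4 and 2854 and 992 at EB5 (log2 change -0.33, SE 0.43, adjusted p = 0.84). Rxra, Rxrb and Rxrg encode the partners of the receptors and were not called, at log2 changes of 0.66, 0.38 and -2.38. Nor was any of the 5 coregulator genes of the Ncor and Ncoa families.

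Textbook RA targets, a list of 18 genes of known early response that overlaps the RA handling and Hox lists, held 16 genes that rose (88.9%) and none that fell, with a median log2 change of 5.46. The genes not called were Tgm2, a transglutaminase, with 304 and 177 normalised counts at EB4 and 710.4 and 357 at EB5, and Nr2f2, an orphan receptor, with 15.3 and 388 normalised counts at EB4 and 399.9 and 1277 at EB5. In both the EB5 libraries were above the EB4 libraries, and without EB4 replicate 2 the log2 change of Nr2f2 was 5.45 (limma, adjusted p = 0.001). Stra8, named after its stimulation by RA and known for the entry of germ cells into meiosis, stood at 2.2 and 4.3 normalised counts at EB4 and 4534 and 1549.5 at EB5 (log2 change 9.33, SE 0.67, adjusted p = 1.86e-05). Nr2f1, a relative of Nr2f2, had 2.2 and 0 normalised counts at EB4 and 358 and 1201 at EB5, a ratio of 711-fold (counting interval 197 to 5873) (adjusted p = 0.000312). Foxa1, a pioneer factor of endoderm and floor plate, had 24.1 and 18.2 normalised counts at EB4 and 355 and 494 at EB5 (log2 change 4.25, SE 0.38, adjusted p = 5.82e-05). In all of them the EB5 libraries lay far above the EB4 libraries. The number of targets that rose was 15 or 16 with each library left out.

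The gene with the largest rise was a Hox gene, and Hox genes rose in all 4 clusters. Of 39 Hox genes 32 were tested, and 19 of them rose (59.4%), with none lower and a median log2 change of 4.19 (4.13 with lower bounds for genes without a read at EB4). The 7 others, all of paralogue groups 10 to 13, did not pass the filter on low values. Members of the paralogue groups 1 to 5, which are expressed in the hindbrain and anterior spinal cord of the embryo, held 14 of these rises among 15 genes, and the 15 had log2 changes of 2.51 to 10.25 with a median of 8.13. Groups 6 to 8 held 5 among 8, with a median of 3.25. Groups 9 to 13, which mark the posterior trunk and limb, held none among the 9 tested, with a median of 1.33 and no EB5 library above 59.3 normalised counts. By cluster, 7 of 9 tested genes were higher in the Hoxa cluster, 7 of 10 in Hoxb, 3 of 7 in Hoxc and 2 of 6 in Hoxd. Counts of Hox genes that rose were 16, 21, 17 and 18 with a library left out.

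Hoxb1, a gene of the hindbrain, had 3.3 and 2.1 normalised counts at EB4 and 2096 and 1916 at EB5 (log2 change 9.09, SE 0.84, adjusted p = 8.43e-05). Per length of transcript its mean level at EB5 was 864 normalised counts per kilobase, against 936 for Hoxc4 and 604 for Hoxa5. Hoxc5 (chromosome 15, 102844246 to 102847860, plus strand) had no read in either EB4 library and 904 and 1638 normalised counts at EB5, at least 387-fold higher, with the largest fitted rise of any called gene (adjusted p = 1.68e-05). Hoxd3 had none at EB4 and 444 and 951 at EB5, at least 212-fold higher (adjusted p = 3.91e-05). Both groups were far apart in each of these genes. Hoxb4 had 0 and 3.2 normalised counts at EB4 and 1380.4 and 1775 at EB5, a ratio of 981-fold (counting interval 336 to 4756), the interval covering counting error only. Hoxa3 had 1.1 and 0 normalised counts at EB4 and 550.5 and 1092 at EB5, from a single read at EB4, with a ratio of 1498-fold (counting interval 269 to 59180.0).

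In the Hoxb cluster, the mean level at EB5 per kilobase of exon was 380.2 normalised counts for Hoxb4, 441 for Hoxb5, 128 for Hoxb6, 8.8 for Hoxb7, 22.4 for Hoxb8 and 18.6 for Hoxb9. Hoxb5 rose by 8.10 on the log2 scale, Hoxb6 by a ratio of 166-fold (counting interval 56.7 to 804) and Hoxb8 by a ratio of 55.3-fold (counting interval 15.3 to 457). Hoxb9 did not pass, with 3.3 and 17.2 normalised counts at EB4 and 36.7 and 59.3 at EB5 (log2 change 2.43, SE 0.66, adjusted p = 0.0689), and Hoxb7 did not either (log2 change 3.20, SE 0.96, adjusted p = 0.104). Without EB4 replicate 2 both passed, with log2 changes of 3.48 for Hoxb9 and 5.20 for Hoxb7 (limma, adjusted p = 0.0145 and 0.00167). At EB8 Hoxb5 had 4918 and 5692 normalised counts and Hoxb9 5724 and 7120.3. In the Hoxa cluster, Hoxa5 rose by 8.53 and Hoxa7 by 3.26 on the log2 scale, Hoxa6 passed the test with no read at EB4 and 18.8 and 4.4 normalised counts at EB5 (at least 3.5-fold higher), and Hoxa9 had 0 and 1.1 normalised counts at EB4 and 3.8 and 3.3 at EB5. Hoxc6 was the last gene of its cluster to pass, with 0 and 2.1 normalised counts at EB4 and 16.0 and 15.4 at EB5, a ratio of 14.6-fold (counting interval 4.0 to 121) (adjusted p = 0.0416), and Hoxc8 had 6.6 and 14.3 at EB5. Hoxd4 had no read at EB4 and 89.4 and 299 normalised counts at EB5, at least 59.0-fold higher, while Hoxd1 did not pass with 13.2 and 18.2 normalised counts at EB4 and 87.5 and 98.8 at EB5 (log2 change 2.51, SE 0.76, adjusted p = 0.106). These read counts do not separate Hox genes from transcripts that overlap them on the other strand, as the use of strand in counting is not given in the sources used here.

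Hox proteins bind DNA with TALE partners, and Cdx factors act before posterior Hox genes. Of 11 tested members of this list 6 rose, with a median log2 change of 2.17. Meis1 stood at 18.6 and 59.0 normalised counts at EB4 and 2082 and 3534 at EB5 (log2 change 6.30, SE 0.69, adjusted p = 0.000233). Meis2 had 47.1 and 154 normalised counts at EB4 and 5267 and 6576 at EB5 (log2 change 6.09, SE 0.51, adjusted p = 3.91e-05). The groups were well apart in both genes. Pbx2 rose by 1.25 and Pknox2 by 3.71 on the log2 scale, whereas Meis3, Pbx3 and Pknox1 were not called, with changes of 0.52, 0.32 and -0.29. Cdx1 rose from 5.5 and 18.2 to 283 and 478 normalised counts (log2 change 5.05, SE 0.62, adjusted p = 0.00057) and had 37.8 and 102 at EB8. Cdx2 had overlapping groups, with 0 and 32.2 normalised counts at EB4 and 15.1 and 40.6 at EB5, and passed without EB4 replicate 2 (log2 change 4.69, limma adjusted p = 0.0202). The counts with a library left out were 5, 7, 5 and 5.

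Regional factors of the hindbrain and spinal cord rose in 6 of 13 cases, with a median log2 change of 2.88. Gbx2, which sets the border between midbrain and hindbrain, had 12.1 and 30.0 normalised counts at EB4 and 1065 and 1285 at EB5 (log2 change 5.86, SE 0.84, adjusted p = 0.0017). Both EB5 libraries were above both EB4 libraries. Irx3 and Irx5, neighbours on chromosome 8, rose by 4.92 and 4.51. Egr2, which marks rhombomeres 3 and 5, did not pass, with 11.0 and 24.7 normalised counts at EB4 and 3.8 and 29.6 at EB5. Pax2 was not called (2.88), but passed without EB4 replicate 2 (4.24, limma adjusted p = 0.036). Among 10 tested factors of the forebrain and midbrain, 2 rose and Otx2 fell. Otx2, expressed in the epiblast and then in the forebrain and midbrain, had 7163 and 6070.3 normalised counts at EB4 and 1273 and 754 at EB5 (log2 change -2.75, SE 0.53, adjusted p = 0.0116), and was not called without EB4 replicate 1 (limma, adjusted p = 0.0958) or without EB5 replicate 2 (0.133). Lhx2, a factor of the eye field and one of the genes that rose, had 24.1 and 39.7 normalised counts at EB4 and 158 and 224 at EB5. The 2 higher calls were 1, 2, 1 and 0, and the lower call 0, 1, 1 and 0, with a library left out.

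Exit from pluripotency was uneven. Of 13 core pluripotency genes 5 fell (38.5%, against 1.14% of all genes) and none rose, with a median log2 change of -1.41. Pou5f1, which encodes Oct4, stood at 19285 and 9597 normalised counts at EB4 and 4186 and 1936 at EB5 (log2 change -2.26, SE 0.38, adjusted p = 0.00523). Foxd3, a repressor needed for pluripotency and later used in neural crest, had 1022 and 709 normalised counts at EB4 and 21.6 and 18.7 at EB5 (log2 change -5.34, SE 0.67, adjusted p = 0.000639), the largest fall of any called gene. L1td1, an RNA binding protein of ES cells, had 13404 and 10228 normalised counts at EB4 and 2629 and 1825 at EB5 (log2 change -2.42, SE 0.28, adjusted p = 0.000353). In these genes every EB5 library was below every EB4 library, but Pou5f1 was not called without EB4 replicate 1 (limma, adjusted p = 0.0641) or without EB5 replicate 2 (0.0742). Tdgf1, a coreceptor for Nodal, had a log2 change of -2.96 on the log2 scale (11162 and 6849 normalised counts at EB4 and 1799 and 699.5 at EB5) and Zfp281, a zinc finger factor, had a change of -0.96. Nanog was lower in both EB5 libraries without passing the test, with 6388 and 3465 normalised counts at EB4 and 1466 and 2148 at EB5 (log2 change -1.41, SE 0.55, adjusted p = 0.234). Sox2, which neural progenitors also express, had 8727 and 9979 normalised counts at EB4 and 7902 and 6959.9 at EB5 (log2 change -0.33, SE 0.24, adjusted p = 0.618), with a 95% interval of -0.85 to 0.19. Lin28a, at 22076 and 21374 normalised counts at EB4 and 22487 and 22993 at EB5, had a change of 0.07. Utf1 (-1.98) and Fgf4 (-2.99) were not called. The count was 3, 4, 4 and 3 with a library left out.

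Genes of the naive state, the ground state of ES cells, showed no call, where 1.14% of all genes tested fell. None of the 14 was called by limma or by edgeR and 1 was by DESeq2, and 3 had an unadjusted p under 0.05, all lower. Their median log2 change was -0.60. In 8 of the 14 both EB5 libraries lay below both EB4 libraries, against 20.0% of all genes tested, and in none above. Esrrb had 3449 and 2053 normalised counts at EB4 and 1637 and 1501 at EB5, below 7375 and 13418 in ES cells. Klf4 had 141 and 589.8 normalised counts at EB4 and 127 and 323 at EB5, against 2929 and 3599 in ES cells. Esrrb, an orphan receptor, was lower in both EB5 libraries, and the groups of Klf4 overlapped. Prdm14 and Tbx3, at changes of 0.27 and 0.15, had overlapping groups. Without EB4 replicate 2, 1 naive gene fell.

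Genes of the primed epiblast, the state that EBs pass through, fell in 5 of 9 cases (55.6%) and rose in none, with a median log2 change of -1.60. Fgf5, the classical marker of that state, stood at 3708 and 4971 normalised counts at EB4 and 163 and 266 at EB5 (log2 change -4.36, SE 0.47, adjusted p = 0.000233). Dnmt3b, the de novo DNA methyltransferase of the epiblast, had 68132 and 35339.7 normalised counts at EB4 and 4259.9 and 3437 at EB5 (log2 change -3.68, SE 0.39, adjusted p = 0.000184). Etv5, an effector of FGF signalling, had 8379 and 4713 normalised counts at EB4 and 2553 and 1770.2 at EB5 (log2 change -1.56, SE 0.28, adjusted p = 0.00764). The EB4 and EB5 libraries were separate in all of them. In ES cells Fgf5 had 209 and 286 normalised counts and Dnmt3b 18216 and 11013, so that EB4 was the highest of the WT stages for both. Otx2 and Zic5 (-1.60) also fell. Dnmt3a, Lef1 and Zic2 did not pass, with changes of -0.83, -1.83 and -1.47, and Sall2 had overlapping groups. Dnmt3a passed without EB4 replicate 2 (-1.14, limma adjusted p = 0.0261). The count was 2, 5, 4 and 2 with a library left out.

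**Figure D3:**
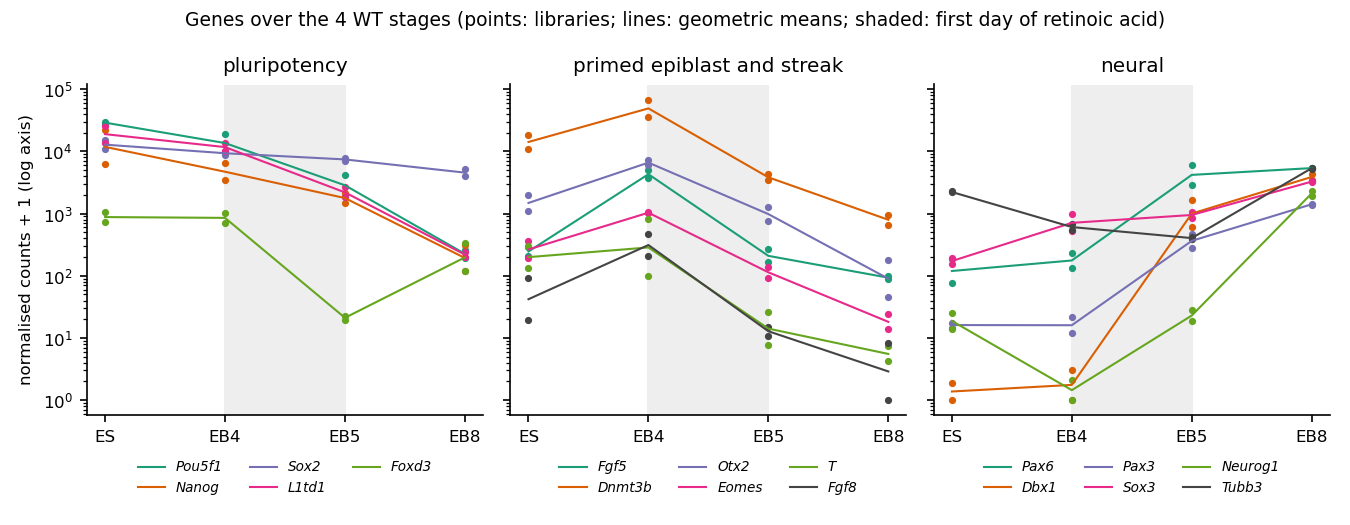
Normalised counts plus 1 (log axis) of pluripotency genes, of primed epiblast and streak genes and of neural genes in the 4 WT stages (x axis), with a point for each library and lines through the geometric means. The shaded band is the first day of RA; within it Foxd3, Fgf5, Dnmt3b and Eomes drop and Pax6, Pax3 and Dbx1 climb, all past the test, whereas Sox2, Sox3 and Tubb3 were not called.

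The primitive streak is where mesoderm and endoderm arise in the embryo. Of 13 tested streak genes 3 fell and 2 rose, with a median log2 change of -1.51. T, the Brachyury gene, had 99.7 and 807 normalised counts at EB4 and 6.6 and 25.3 at EB5 (log2 change -4.34, SE 1.07, adjusted p = 0.0451). Eomes, a T-box factor of the early streak, had 1002 and 1064 normalised counts at EB4 and 139 and 91.1 at EB5 (log2 change -3.18, SE 0.49, adjusted p = 0.00298). Evx1, a homeobox gene of the posterior streak, had 4.4 and 78.3 normalised counts at EB4 and no read in either EB5 library, at least 12.6-fold lower (adjusted p = 0.0269). The groups did not overlap, but the EB4 libraries of T and Evx1 were unlike one another, with replicate 2 the higher. T was called without EB4 replicate 1 and not without EB4 replicate 2 (limma, adjusted p = 0.228), EB5 replicate 1 (0.241) or EB5 replicate 2 (0.0969). Fgf8, a signal of the streak, had 469 and 206 normalised counts at EB4 and 14.1 and 9.9 at EB5 and did not pass (log2 change -4.60, SE 1.24, adjusted p = 0.065), nor did Mixl1, with 26.3 and 299 normalised counts at EB4 and 10.4 and 8.8 at EB5. The genes that rose were Wnt3a (2.2 and 4.3 normalised counts at EB4 and 20.7 and 52.7 at EB5) and Lhx1 (55.9 and 169 normalised counts at EB4 and 1107 and 944 at EB5), both of which are also expressed in the neural tube. With a library left out, 3, 1, 2 and 1 fell and 0, 1, 1 and 0 rose. Among the 14 Nodal pathway genes tested limma called Tdgf1 lower and none higher, as did edgeR, while DESeq2 called 1 higher and 1 lower. The limma call made 7.1% of the list, against 3.73% of all genes tested. Nodal itself had 1047 and 679.8 normalised counts at EB4 and 1264 and 1172 at EB5 (log2 change 0.53, SE 0.31, adjusted p = 0.502). Lefty1, an inhibitor of Nodal, had overlapping groups. The single fall was also called without EB4 replicate 2 and without EB5 replicate 1, and not without either of the other libraries.

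Neural plate and progenitor factors rose in 7 of 26 cases and fell in 1, with a median log2 change of 1.14. Pax6, a factor of neural progenitors, stood at 234 and 131 normalised counts at EB4 and 2855 and 6135 at EB5 (log2 change 4.57, SE 0.57, adjusted p = 0.000589). Pax3, of the dorsal neural tube, had 11.0 and 20.4 normalised counts at EB4 and 280.4 and 470.0 at EB5 (log2 change 4.51, SE 0.51, adjusted p = 0.000338). Dbx1, which marks progenitors of the intermediate neural tube, had 0 and 2.1 normalised counts at EB4, from 2 reads in all, and 612 and 1631 at EB5, a ratio of 1046-fold (counting interval 289 to 8634), with an adjusted p of 0.000103. All EB5 libraries were above all EB4 libraries. Pax7 (3.83), Zic1 (4.19), Msx3 (4.32) and Foxb1 (4.84), all dorsal or early neural tube factors, rose on the log2 scale as well, from fewer than 20 normalised counts in each EB4 library. The general neural genes Sox3, Nes and Vim were not called, with changes of 0.42, 0.41 and 0.27. Sox1 was not analysed here. Nkx2-2 and Olig2, genes of ventral progenitors, were not called. Nkx2-2 had 9.9 and 74.0 normalised counts at EB4 and 0.9 and 2.2 at EB5, with both EB5 libraries the lower. Olig2 had overlapping groups, with 0 and 462 normalised counts at EB4 and 5.6 and 17.6 at EB5. The single EB4 library with reads decided the sign for Olig2, as its log2 change was 3.47 without EB4 replicate 2 (adjusted p = 0.0261, limma) and -5.38 without EB4 replicate 1 (0.00312). The count of rises was 5, 9, 7 and 3 with a library left out, and that of falls 1, 1, 1 and 0.

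Proneural and Notch genes rose in 4 of 25 cases, with none lower and a median log2 change of 0.20. Neurog1, a proneural factor, had 1.1 and 0 normalised counts at EB4 and 27.3 and 17.6 at EB5, from 1 read at EB4, a ratio of 40.9-fold (counting interval 7.3 to 1617) (adjusted p = 0.0226). Olig3, of dorsal progenitors, had 0 and 3.2 normalised counts at EB4 and 24.5 and 109.8 at EB5, a ratio of 41.7-fold (counting interval 14.3 to 202) (adjusted p = 0.0167). Dll1, a ligand of Notch, had 364 and 134 normalised counts at EB4 and 782 and 706 at EB5 (log2 change 1.75, SE 0.38, adjusted p = 0.025), and Lfng, which modifies Notch, rose by 1.75. The groups were apart in each, but without a library the count was 1, 1, 1 and 0, and 1 gene fell without EB4 replicate 1. Neurog2, a second proneural factor, had 0 and 2.2 normalised counts at EB5 and 831 and 553 at EB8.

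Among 17 neuronal genes tested limma and edgeR called 1 higher and none lower, whereas DESeq2 called 3 higher and 1 lower, and 4 higher and 3 lower had an unadjusted p under 0.05 in limma. The limma call made 5.9% of the list, against 3.73% of all genes tested, and the median log2 change was -0.25. Tubb3, the neuronal tubulin, on chromosome 8, had 667 and 550.1 normalised counts at EB4 and 386 and 419.5 at EB5 (log2 change -0.59, SE 0.27, adjusted p = 0.326). Dcx, of migrating neurons, had 3.3 and 4.3 normalised counts at EB4 and 10.4 and 12.1 at EB5 and reached 4946 and 6972 at EB8. Elavl3 and Stmn2 had changes of -0.94 and -1.60 and were not called. A second gene passed without EB4 replicate 2, and the count was 1 without each of the others.

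Among signalling pathways, FGF genes leaned downwards. Of 21 tested 5 fell and 2 rose, with a median log2 change of -1.25. Besides Fgf5 and Etv5, the genes that fell were the feedback inhibitors Spry1 (-1.25), Spry2 (-1.94) and Spry4 (-2.30). Spry2 stood at 2354 and 2862 normalised counts at EB4 and 744 and 615 at EB5 (log2 change -1.94, SE 0.38, adjusted p = 0.0138). The receptor genes Fgfr2 and Fgfr4 rose, Fgfr2 from 742 and 1651 to 4741 and 5037 normalised counts (log2 change 2.14, SE 0.37, adjusted p = 0.0060). The feedback gene Dusp6 was not called (-0.49). With a library left out 1, 3, 3 and 1 fell and 0, 2, 1 and 0 rose.

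Wnt pathway genes rose in 6 of 31 cases and fell in 1, with a median log2 change of 0.60. Sfrp5, a secreted inhibitor of Wnt, stood at 13.2 and 5.4 normalised counts at EB4 and 1729.5 and 3979.6 at EB5 (log2 change 8.11, SE 0.64, adjusted p = 2.97e-05) and had 148 and 91.1 at EB8. Wnt1, the Wnt of the dorsal midbrain and neural tube, had 0 and 7.5 normalised counts at EB4 and 188 and 445 at EB5 (log2 change 6.64, SE 1.19, adjusted p = 0.00796). Wls, which carries Wnt proteins to the surface, had 945 and 2276 normalised counts at EB4 and 5242 and 7658 at EB5 (log2 change 2.11, SE 0.43, adjusted p = 0.0161). The libraries of the stages were separate in each. Wnt5a, Wnt3a and the inhibitor Dkk1 rose by 2.11, 3.06 and 2.88, and the receptor Fzd5 had a log2 change of -1.25. Axin2, a common readout of canonical Wnt signalling, had overlapping groups, with 572 and 413 normalised counts at EB4 and 539 and 731 at EB5. The count of rises was 1, 7, 5 and 1 with a library left out. The number of falls was 0, 0, 1 and 0, and Fzd5 was not called without any 1 of the 4 libraries (adjusted p from 0.0542 to 0.155, limma).

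Of 21 BMP pathway genes 3 rose and none fell, with a median log2 change of 0.69. These were Id2 (1.85) and Msx2 (2.19), both BMP targets, and the inhibitory Smad6 (1.94). Id2 had 407 and 485 normalised counts at EB4 and 1559 and 1656 at EB5 (log2 change 1.85, SE 0.25, adjusted p = 0.00114). Bmp4 had 114 and 174 normalised counts at EB4 and 209.8 and 330.5 at EB5 and was not called. The count was 1, 2, 1 and 1 with a library left out. In the Hedgehog list 3 of 12 rose, the coreceptors Boc (2.27) and Cdon (1.43) and the Hedgehog binding protein Hhip (3.58), with a median log2 change of 0.41 (0.17 with lower bounds). Shh itself had 0 and 0 normalised counts at EB4 and 0.9 and 5.5 at EB5, and its targets Gli1 and Ptch1 had overlapping groups, with changes of -0.01 and 0.12. The count was 1, 3, 2 and 0 with a library left out, and 1 gene fell without EB4 replicate 2.

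Cadherins and regulators of the epithelial state included 2 rises and 2 falls among 18. Epcam, an epithelial adhesion molecule, fell from 9503 and 11384 to 4712 and 3717 normalised counts (log2 change -1.31, SE 0.20, adjusted p = 0.00259) and Grhl2, an epithelial regulator, had a log2 change of -1.07. Zeb2, a repressor of epithelial genes, rose by 2.24, and Cdh6, a cadherin of the hindbrain and neural crest, by 4.07. Cdh1 and Cdh2, the cadherins of epithelium and of neural tissue, had 41249 and 21057 at EB4, 20887 and 7277 at EB5, and 682 and 1138 at EB4, 2152 and 5608 at EB5, and did not pass (-1.26 and 1.98 on the log2 scale). The rises were 0, 1, 0 and 0 and the falls 1, 2, 2 and 1 with a library left out. Among 22 cell cycle regulators DESeq2 called 1 higher and 1 lower. Limma and edgeR called Ccnd2 higher and no other (4.5%, against 3.73% of all genes tested by limma). This D-type cyclin stood at 231 and 580.1 normalised counts at EB4 and 4683 and 10086 at EB5 (log2 change 4.23, SE 0.59, adjusted p = 0.00134), while Ccnd1 had 3626 and 2388 normalised counts at EB4 and 1355 and 1036 at EB5 and was not called. Ccnd2 was also called without each library in turn.

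Markers of other lineages were examined for cells that are not neural. In the mesoderm and cardiac list 4 of 16 tested genes rose and none fell, with a median log2 change of 0.81. Foxc1 and Foxc2 are forkhead factors of paraxial mesoderm. Foxc1 had 18.6 and 24.7 normalised counts at EB4 and 545 and 701 at EB5 (log2 change 4.79, SE 0.59, adjusted p = 0.000589). Foxc2 had 1.1 and 1.1 normalised counts at EB4 and 248 and 357 at EB5, a ratio of 279-fold (counting interval 77.2 to 2302) (adjusted p = 3.71e-05). Meox1, a somite factor, rose by 5.66 on the log2 scale and Hand2, which acts in heart and limb mesoderm, had 1.1 and 0 normalised counts at EB4 and 33.9 and 12.1 at EB5, a ratio of 41.9-fold (counting interval 7.5 to 1656). Their EB5 libraries were above their EB4 libraries. The defining cardiac genes Nkx2-5 and Myl7 were not called, and Tbx5 and Tnnt2 were below the filter on low values. The count was 3, 3, 3 and 2 with a library left out.

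In the endoderm list 3 of 13 tested genes rose and none fell, with a median log2 change of 0.68. Sox17 had 23.0 and 38.6 normalised counts at EB4 and 326 and 958 at EB5 (log2 change 4.18, SE 0.88, adjusted p = 0.0206). Gata6 had 25.2 and 61.1 normalised counts at EB4 and 336 and 561 at EB5 (log2 change 3.43, SE 0.48, adjusted p = 0.00148), and the third gene was Foxa1. The stages were separate in all 3, and 2 or 3 were called with each library left out. Foxa2 had 57.0 and 51.5 normalised counts at EB4 and 293 and 352 at EB5 and did not pass (log2 change 2.55, SE 0.72, adjusted p = 0.0822). Afp, Ttr and Apoa1, which mark later visceral endoderm and liver, were below the filter.

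Fibroblast markers, which feeder cells would carry, summed to 1609 and 2301 normalised counts at EB4 and to 3577 and 2922 at EB5. The methods of the study describe removal of feeders before EBs were formed for spontaneous differentiation, and do not spell this step out for the RA protocol. None of the 10 fibroblast markers tested was called by limma, edgeR or DESeq2, while 3 had an unadjusted p under 0.05 with EB5 higher and 1 with EB5 lower. Their median log2 change was 1.29, and Lum was below the filter. Their part in the results was not tested. Trophoblast markers (7 tested) and blood and endothelial markers (6 tested) had no call by any of the 3 tools, with 1 and 0 members at an unadjusted p under 0.05. Without EB4 replicate 2, 1 fibroblast and 2 trophoblast markers passed. Of 9 neural crest markers Pax3 and Tfap2a (2.21) rose and Foxd3 fell, the rises being 2, 1, 1 and 1 with a library left out. Of 9 germ cell markers Stra8 and Rec8, a cohesin of meiosis, rose. Rec8 had 426 and 399 normalised counts at EB4 and 2531 and 2472 at EB5 (log2 change 2.60, SE 0.27, adjusted p = 0.000164), and Ddx4 and Dazl, which define germ cells, had changes of -0.47 and 0.02 with overlapping groups.

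Lists of general cell functions held no limma call. At the share of all genes tested that were called (3.73%), lists of this size would hold few calls. None of 19 genes of glycolysis and hypoxia, of 28 mitochondrially encoded genes and of 80 cytosolic ribosomal protein genes was called by limma, edgeR or DESeq2, and only 1 of them, a ribosomal protein gene, had an unadjusted p under 0.05. Median log2 changes were -0.12, -0.38 and -0.07. The mitochondrially encoded genes ran from -1.12 to -0.01, and their median lay below the lower quartile of all genes tested (-0.26). None of 17 immediate early and stress genes was called by limma or edgeR, with 1 by DESeq2 and 2 at an unadjusted p under 0.05, and their median was -0.17.

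**Figure D4:**
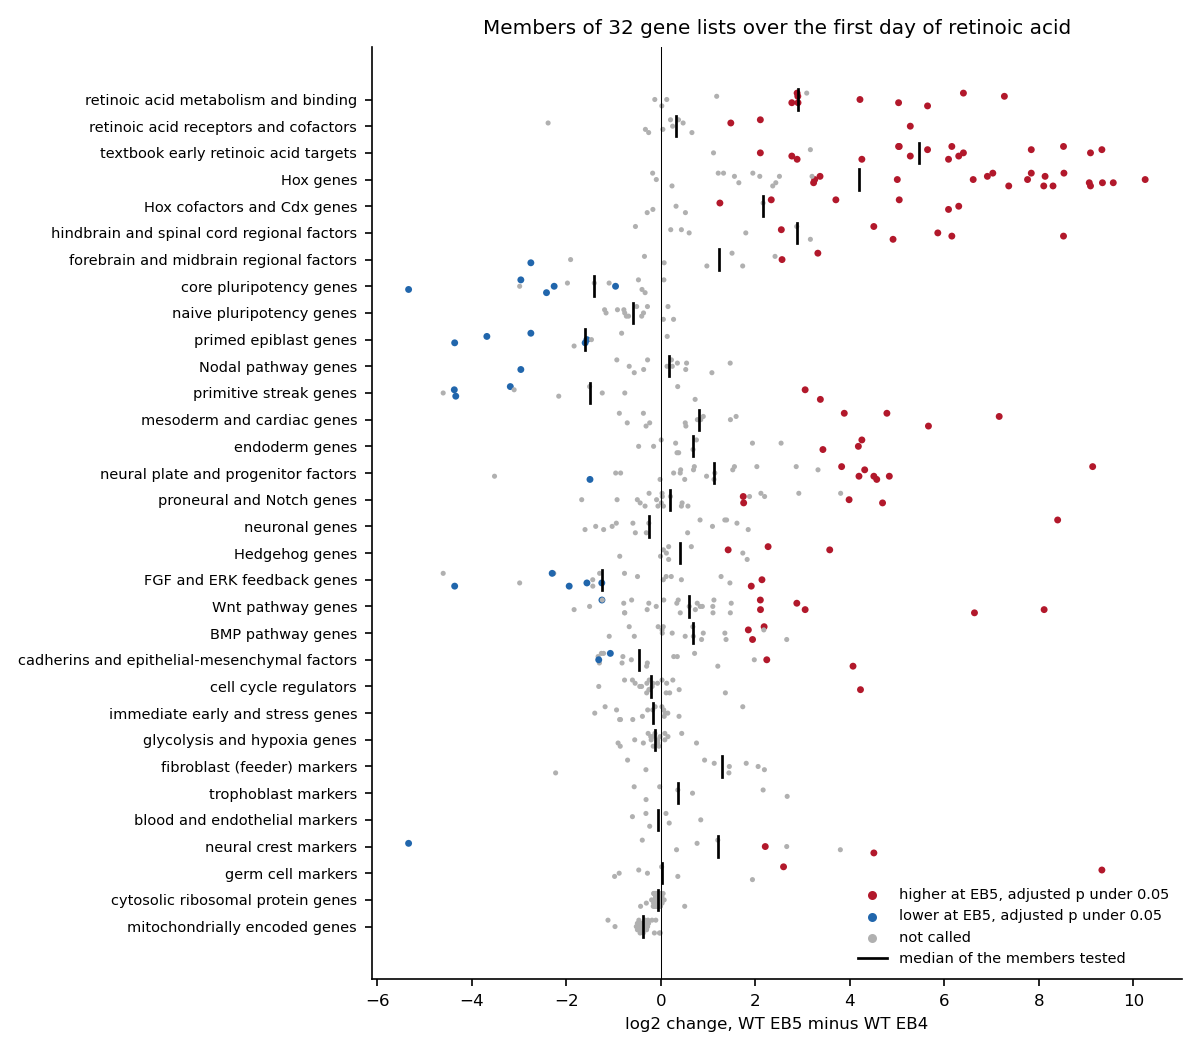
Log2 change from WT EB4 to WT EB5 (x axis) of the tested members of 32 gene lists (rows). Each point is a gene, red where it rose, blue where it fell and grey where it was not called, and black bars are the medians of the members tested; the RA and Hox lists lie to the right, core pluripotency, primed epiblast, streak and FGF genes reach to the left, and ribosomal and glycolytic genes gather near 0.

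By the size of the change, 8 of the 12 largest rises were Hox genes or textbook RA targets of the lists above, and Dbx1 was another. The others included 1700011H14Rik, with no read at EB4 and 369 and 342 normalised counts at EB5 (at least 108-fold, adjusted p = 0.00149), and Grifin, a galectin-related gene known from the lens, with none at EB4 and 268 and 402 at EB5 (at least 102-fold, adjusted p = 0.000448). The 12 largest falls included Foxd3, Fgf5 and T. Pim2, an X-linked kinase gene, stood at 23028 and 14362 normalised counts at EB4 and 1828 and 525 at EB5 (log2 change -4.21, SE 0.48, adjusted p = 0.000338). Enpp2, which encodes autotaxin, had 2242 and 534 normalised counts at EB4 and 84.7 and 35.1 at EB5 (log2 change -4.30, SE 0.93, adjusted p = 0.0223). Foxi3, a forkhead factor of placodal ectoderm, had 1032 and 558 normalised counts at EB4 and 83.7 and 36.2 at EB5 (log2 change -3.76, SE 0.58, adjusted p = 0.00298). Penk, the enkephalin precursor, had 406 and 852 normalised counts at EB4 and 57.4 and 30.7 at EB5, and Cbln4, a secreted synaptic protein, 261 and 29.0 normalised counts at EB4 and 0.9 and 9.9 at EB5. The remaining 4, Slc22a3, Cyp2b23, Spna1 and the X-linked transcript Gm14717, fell from at most 266 normalised counts at EB4 to 15.4 or fewer at EB5.

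The libraries labelled Taf4a-/- gave a second, separate measurement of the same day. Taf4a itself had 2369 and 2056 normalised counts at EB4 and 2284 and 2002 at EB5 in these libraries and 1959.6 and 1939 and 1778 and 1756 in WT, and exons were not counted separately, so Taf4a does not check the genotype, which is given as labelled. There 405 genes were called (2.51%), 293 higher (1.82%) and 112 lower (0.695%). Of the 417 genes that rose in WT, 404 had a change above 0 in the libraries labelled Taf4a-/- (96.9%, against 51.3% of all genes tested), and 181 were called higher and 0 lower. Of the 184 that fell in WT, 183 had a change below 0 (99.5%, against 48.6%), and 49 were called lower. Cyp26a1, Rarb and Stra8 had log2 changes of 6.57, 5.52 and 9.13 there, next to 6.40, 5.28 and 9.33 in WT, and Fgf5, Dnmt3b and Pou5f1 had -3.89, -3.18 and -1.29, next to -4.36, -3.68 and -2.26. As the 601 genes were chosen by their change in WT, the sizes of their changes in the 2 genotypes are not to be compared.

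The difference between the genotypes in this change was tested for each gene as an interaction, and limma called 0 genes (0.00%), with 478 at an unadjusted p under 0.05. edgeR called 0 and DESeq2 called 4 (Itga2, Steap3, Foxa2 and Skap2). Dbx1 was almost without reads in the libraries labelled Taf4a-/-. It had 0 and 0 normalised counts there at EB4 and 2.8 and 0 at EB5, and the WT change was larger by 8.17 on the log2 scale (95% interval 5.49 to 10.85, adjusted p = 0.196). Foxa2 had 161 and 28.1 at EB4 and 15.2 and 6.8 at EB5, where WT had 57.0 and 51.5 and 293 and 352, a difference of 5.16 (2.94 to 7.38, adjusted p = 0.857 by limma). Pax6 had a log2 change of 1.78 there next to 4.57 in WT, with an adjusted p of 1.0 for the difference. No such difference passed the threshold of limma at this number of libraries, which does not show that the genotypes responded alike.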

How the data were processed

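The deposited table held 27807 genes in 16 libraries. Its signal values are gene counts that the authors divided by DESeq2 size factors. Per the submitters' processing notes, reads were processed with CASAVA 1.7 and 1.8, TopHat2 2.0.10, HTSeq 0.5.4p3 and DESeq2 1.0.19 on mouse NCBI37. The use of strand is not given in the sources used here. Each library's smallest step gave back whole reads for 100% of values (within 0.05 of a step), on which edgeR 4.0.16 and DESeq2 1.42.0 were run as alternatives and called 525 and 1089 genes.

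Other pseudocounts, filters, scalings, thresholds, subsets of libraries and a replicate block were also tried. Values were tested as log2(normalised count + 1) with limma 3.58.1 (R 4.3.3), with a mean for each of the 8 groups, a trended prior, genes with a mean of at least 10 and Benjamini-Hochberg adjustment (threshold 0.05). Fold changes on this scale understate the change of low genes. Groups came from the labels. Scripts were tested on simulated data. Gene positions came from GENCODE annotation of NCBI37 (27603 identifiers matched), promoters from RefSeq. A lower bound on a fold set the group without a read, EB4 or EB5, at 3 reads. Of the 2 libraries of that group, the one with the larger normalised value of 3 reads was used. Intervals cover counting error only.

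The members, lists and tests were chosen with earlier results of these data known. Any list member could be named, each list's called members of largest change first, up to 6, with Cyp26a1, Rarb, Hoxb1, Pou5f1, Nanog, Sox2, Pax6, T, Fgf8, Nodal and Tubb3 always given, and outside the lists the 12 largest rises and falls among called genes with a mean of at least 50 in the higher group. Ppbp, Itga2, Steap3 and Skap2 were named after their values were seen. Sox1, Gdf1, Foxf1, Map2, Pkm and Spi1 were not matched by symbol and not analysed here. Some list members are not reported here.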

Additional observations from a re-analysis of the deposited data

How the results depend on the processing

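The 601 genes called between WT EB4 and WT EB5 were 170 in a fit of only the compared groups (80.0% of them higher, against 69.4%), 249 at an adjusted p threshold of 0.01 and 1089 with DESeq2, and from 197 to 536 with 1 library left out. The lowest count came without EB5 replicate 2, and the cause was not tested. The other pseudocounts, filters, scalings and edgeR gave 509 to 630. No gene called in the main comparison changed its direction under any of these settings. In all 601 the EB4 and EB5 libraries did not overlap. Leaving out a library, refitting only the compared groups or changing the pseudocount, filter or threshold could therefore not reverse a direction. With 2 libraries in a group, a lone library left by an omission was assumed to vary like the other groups. Genes near 10 normalised counts are limited by depth.

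Same-numbered WT libraries deviated together between EB4 and EB5 (r = 0.605 over 16124 genes), EB4 and EB8 (0.523) and EB5 and EB8 (0.57), but not between ES cells and the EBs (-0.179 to -0.048). The labels do not tie the numbers to a line, and only 2 numbers exist. When replicate number entered the model as a block, 1332 genes were called (827 higher and 505 lower) in the 12 EB libraries, among them all of the 601, and 917 (588 and 329) in 16 libraries, among them 599 of the 601.

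For the difference between genotypes, the count of 0 became 3 with a pseudocount of 5 and 4 with DESeq2, and was 0 under the replicate block and with each library left out.

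Genes that were not called changed sign in places, on the log2 scale. Quantile normalisation gave -0.068 for Aldh1a3, -0.205 for Dazl, -0.033 for Fabp5 and -0.330 for Neurog2. Gli1 had 0.005 with a pseudocount of 5, 0.018 after upper-quartile rescaling, 0.566 with edgeR and 0.542 with DESeq2. Neurog2 had -0.059 with edgeR and -0.080 with DESeq2, and Olig2 0.568 with a pseudocount of 0.1. With 1 library left out, values ran from -0.359 to 4.69 for Cdx2, from -0.461 to 0.497 for Dazl, from -1.23 to 0.295 for Ddx4, from -1.88 to 0.807 for Egr2, from -0.587 to 0.630 for Fabp5, from -1.55 to 1.54 for Gli1, from -1.54 to 0.516 for Klf4 and from -0.826 to 0.850 for Neurog2. The log2 change of Olig2 ran from -5.38 to 3.47, and values ran from -0.099 to 0.337 for Ptch1, from -1.087 to 0.437 for Rarg, from -0.596 to 0.342 for Rdh10, from -0.035 to 0.308 for Sall2, from -0.033 to 0.874 for Sox3 and from -0.41 to 0.717 for Tbx3.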
